A study of Bos taurus with 36 samples.

Results

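The RAB genes of the bovine liver are described here across the hours that follow infusion of lipopolysaccharide (LPS) into the udder. RAB GTPases are small switch proteins of vesicle traffic. In the GTP-bound form they sit on a membrane and recruit effectors (tethers, motors and sorting proteins), and hydrolysis of GTP returns them to the inactive form. Each RAB marks certain membranes, so that the secretory route from the endoplasmic reticulum (ER) through the Golgi, the early, recycling and late endosomes, and the secretory granules each carry a set of their own. In hepatocytes this traffic serves the secretion of plasma proteins, the uptake of receptors and their ligands, and transport to bile.

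Members were all probe sets of the Affymetrix Bovine Genome Array whose only annotated symbol starts with RAB and a digit. This gave 56 of the 24128 probe sets, for 44 genes. Of these genes, 39 encode RAB GTPases (48 probe sets), and the other 5 encode proteins named after a RAB (8 probe sets), namely RAB3GAP1, RAB3GAP2, RAB3IP, RAB11FIP2 and RAB11FIP5. The name RAB GTPase therefore fits all but these 5 genes. A further 3 probe sets that name a RAB together with another gene were left out. A single probe set reads 33 of the genes, and several read the other 11.

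Liver biopsies came from 8 healthy Holstein-Friesian cows in their first lactation. The right front gland of every udder received 200 µg of E. coli LPS in 10 ml of saline at time 0, and the left front gland received saline alone. All 8 cows were biopsied at -22, 9 and 48 h, and cows 1, 3, 7 and 8 also at 3, 6 and 12 h, which gave 36 arrays. No array of a cow without LPS was analysed here, so the time after infusion and any other effect of time or of repeated biopsies cannot be told apart on these arrays. The methods cite earlier work on saline-infused cows, not measured on arrays, in which biopsies alone had no effect on a few selected genes. The values are log2 intensities made by the authors with GCRMA, and the medians of the arrays lie between 4.15 and 4.38. Each hour was compared with -22 h in a linear model (limma), and a change was called when its p, adjusted by Benjamini-Hochberg over all 24128 probe sets, was below 0.05. Changes are log2 differences of the later hour minus -22 h, with the standard error (SE) of the model. At 3, 6 and 12 h the mean of 4 cows is thus set against the -22 h mean of all 8. All 11 hepatocyte markers listed for the check of the tissue passed a log2 value of 5, and many fell during the response, with 6 called lower at 6 h, 8 at 9 h and 7 at 12 h (median changes -0.33, -0.48 and -0.58) and 1 higher at each of these hours. Their mean level ranged over the cows from 12.98 to 13.42 at 9 h, against 13.67 to 14.00 at -22 h. The part of this shift in the RAB changes was not tested. In a biopsy, fewer cells of a type and less RNA per cell cannot be told apart.

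Of the 56 RAB probe sets, 35 (30 genes) reached a log2 value of 5 in at least 4 arrays, and 21 did not, which left 14 genes without a probe set above that level. Values of these 21 dim probe sets lay between 1.55 and 5.07. For 15 of them no change reached 0.1 on the log2 scale, although 12 of the 21 were called at some hour. The dim genes include RAB3A, RAB3B and RAB3C, known from regulated secretion in neurons and endocrine cells, and RAB25, known from epithelia.

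At 3 h the RAB genes had barely moved. One probe set (1.8%) was higher, against 3.50% of all probe sets, and 1 (1.8%) was lower, against 2.40% of all. At 6 h 13 of 56 (23.2%) were higher, close to the 23.3% of all probe sets, and 11 (19.6%) were lower, against 22.0% of all. At 9 h, with 8 cows, 24 RAB probe sets (42.9%) were higher and 9 (16.1%) lower, against 32.0% and 22.6% of all probe sets. At 12 h, with 4 cows, 23 (41.1%) were higher and 9 (16.1%) lower, against 22.2% and 18.9% of all. In the 4 cows with all hours alone, 18 were higher at 9 h and 24 at 12 h. Which of these hours held the most rises thus depends on the cows used. At 48 h 11 (19.6%) were higher and 10 (17.9%) lower, against 17.9% and 12.2% of all. Of the 11, 6 were on dim probe sets, and the counts depend on the scaling and the cows, with 26 higher and 6 lower after median centring of the arrays and 6 higher without cow 1 or 3. Hence the shares of the 56 stayed near the background at 6 h and lay above it for rises at 9 and 12 h. Falls lay below it at 9 and 12 h. Among the 35 RAB probe sets above the dim level, 13 were higher and 9 lower at 6 h. The shares of all 12479 probe sets above it were 31.5% and 38.3%. At 9 h 18 were higher and 8 lower, against 40.0% and 38.3%, and at 12 h 20 and 7, against 36.3% and 32.4%. These descriptions were not tested as a difference between RAB genes and other genes.

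Of the rises called at 9 h, 6 were on dim probe sets, and 5 of these 6 were of 0.06 or less. Counts of changes of at least 2-fold avoid them. At 6 h 4 RAB probe sets (7.1%) were higher and 8 (14.3%) lower by that much, against 10.2% and 11.0% of all probe sets. At 9 h the counts were 7 (12.5%) higher and 4 (7.1%) lower, against 11.7% and 12.4% of all. At 12 h they were 11 (19.6%) higher and 4 (7.1%) lower, against 10.7% and 10.5% of all. The median change of the 56 probe sets was 0.04 at 6 h, 0.05 at 9 h and 0.20 at 12 h, against 0.03, 0.03 and 0.01 over all probe sets. Among the 35 brighter RAB probe sets, the largest change of a probe set was a rise at 12 h for 14, a fall at 6 h for 6, a fall at 48 h for 5 and a fall at 9 h for 4.

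**Figure D1:**
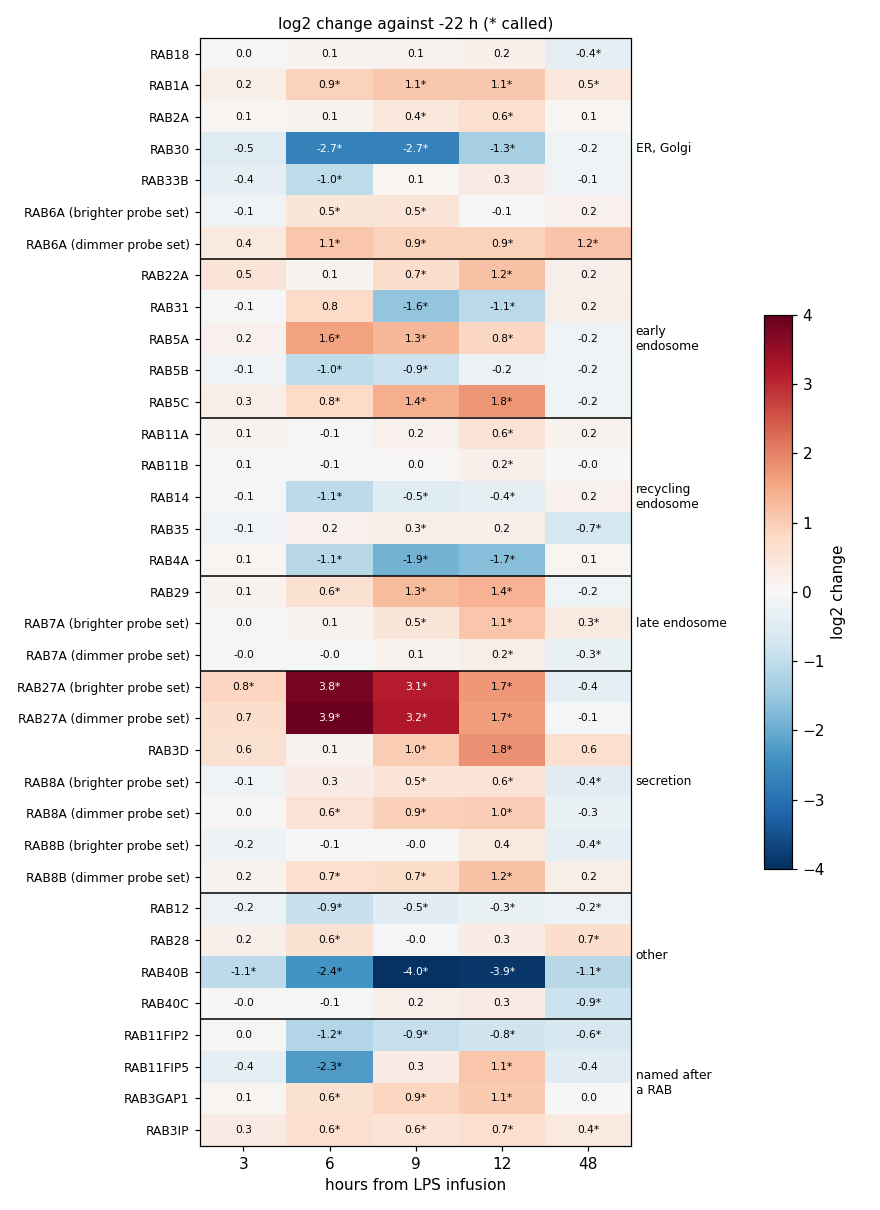
Log2 change against -22 h (colour and number, * for an adjusted p below 0.05) of the 35 RAB probe sets with a log2 value of at least 5 in 4 or more arrays (down) at 3, 6, 9, 12 and 48 h (across), grouped by the membrane on which the RAB acts. RAB27A is the strongest rise, RAB40B and RAB30 are the strongest falls, and most colours fade at 48 h.

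The largest rise was that of RAB27A, which docks secretory granules and lysosome-related organelles at the plasma membrane. Its brighter probe set read 8.26, 8.54, 8.77 and 8.97 at 6 h, against 3.97 to 5.38 with a median of 4.81 at -22 h. Every array at 6 h thus lay above every array at -22 h. The change was 3.81 (SE 0.25, 4 cows at 6 h against 8 at -22 h, adjusted p = 5.61e-14), a 14.0-fold rise. Values of 7.47 to 8.39 (median 8.07) followed at 9 h and of 6.03, 6.37, 7.40 and 6.48 at 12 h, with changes of 3.14 (SE 0.21) and 1.75 (SE 0.25). At 48 h RAB27A lay between 3.90 and 5.12 (median 4.40), overlapping -22 h, and its change of -0.36 was not called.

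The second probe set of RAB27A gave the same course. It changed by 3.91 (SE 0.33) at 6 h, 3.19 (SE 0.27) at 9 h and 1.66 (SE 0.33) at 12 h, and the values of both probe sets correlated at 0.96 over the 36 arrays, which are repeated samples of 8 cows. RAB27A was also the single RAB gene called higher at 3 h, with 5.63, 5.87, 5.36 and 5.84 at 3 h, against a highest value of 5.38 at -22 h. That change of 0.85 (SE 0.25, adjusted p = 0.0384) was lost when cow 1, 3, 4, 6 or 8 was left out (adjusted p 0.0815 to 0.173) and was not called on the second probe set (0.71, SE 0.33).

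RAB27A is known from granules of leukocytes as well as from epithelial cells. The mean log2 level of 8 measured neutrophil markers ranged over the cows from 5.75 to 5.95 at 6 h and from 5.81 to 7.44 at 9 h, against 3.70 to 4.13 at -22 h. Of these 8 markers 3 were called higher at 6 h, S100A8, S100A9 and S100A12, with changes of 5.17, 4.93 and 4.54. The median change of the 8 was only 0.33 at 6 h, so their mean was drawn up by these 3 genes. At 9 h 5 markers were called higher and 1 lower, and at 12 h 4 higher and 1 lower. The granule proteins MPO, ELANE and MMP9 had means of 2.51, 2.13 and 2.14 over all arrays, close to the lower end of the scale. At 12 h the marker mean ranged from 6.12 to 7.17. It already ranged from 5.05 to 5.91 at 3 h, with 3 markers called higher and 0 lower. At 48 h it still ranged from 4.71 to 5.77, with 4 called higher and 0 lower. The part of neutrophils in the RAB27A change was not tested.

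**Figure D2:**
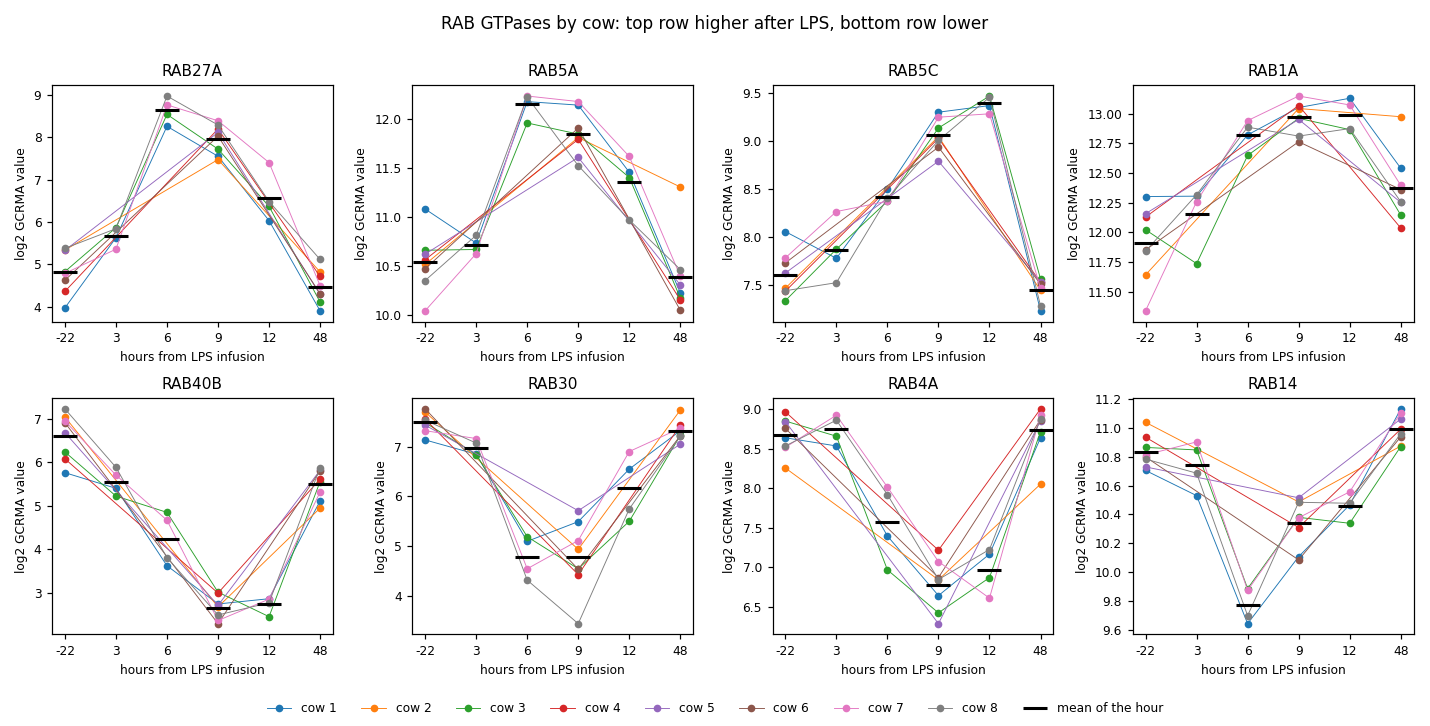
Log2 GCRMA value (vertical axis) at each hour from LPS infusion (horizontal axis, hours evenly spaced) of 8 RAB GTPases, each read through its brightest probe set, with 1 coloured line per cow and a black bar for the mean of the hour. RAB27A and RAB5A were highest at 6 h and RAB5C at 12 h, RAB40B was lowest at 9 and 12 h, and the cows moved together.

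Among the other secretory RABs, RAB3D rose late. This GTPase is found on secretory granules and vesicles of many secretory cells. RAB3D read 10.55, 9.89, 9.91 and 10.95 at 12 h, against 7.60 to 9.56 with a median of 8.61 at -22 h, without overlap, and changed by 1.83 (SE 0.35). The change at 9 h was 1.03 (SE 0.28), higher in 8 of 8 cows, although the ranges overlapped, and was not called in the 4 fully sampled cows alone (adjusted p = 0.0686). The cows differed more for RAB3D than for most members already at -22 h.

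RAB8A and RAB8B carry vesicles from the Golgi and recycling endosomes to the plasma membrane. Both probe sets of RAB8A rose, by 0.54 (SE 0.13) and 0.95 (SE 0.14) at 9 h and by 0.56 (SE 0.16) and 0.98 (SE 0.17) at 12 h. The brighter probe set of RAB8A was then called lower at 48 h (-0.44, SE 0.13). It read 8.50 to 9.60 (median 8.66) at 48 h, against 9.03 to 9.52 (median 9.12) at -22 h, so the ranges overlapped. This fall was not called without cow 1 (adjusted p = 0.0564). The dimmer probe set read 5.89 to 7.18 (median 6.57) at 48 h, against 6.37 to 7.21 (median 6.79) at -22 h.

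The probe sets of RAB8B did not give the same answer. The dimmer one read 7.00, 7.33, 7.02 and 7.01 at 12 h, against 5.42 to 6.41 with a median of 5.97 at -22 h, a change of 1.16 (SE 0.16). The brighter one, which has the highest mean of all secretory RABs measured, changed by 0.35 (SE 0.18) at 12 h and was not called there. A fall of 0.40 at 48 h on the brighter one lost its call when cow 3, 4, 5, 6 or 8 was left out.

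RAB26, known from secretory granules, lysosomes and autophagy, was the one secretory RAB that was lower during the response and higher afterwards. Its values were low throughout, from 2.67 to 3.18 over the arrays at 6, 9 and 12 h and from 3.92 to 5.07 (median 4.54) at 48 h, against 3.14 to 4.20 (median 3.44) at -22 h. It fell by 0.62, 0.56 and 0.73 at 6, 9 and 12 h, and at 48 h it had risen by 0.95 (SE 0.16, adjusted p = 9.78e-05, higher in 7 of 8 cows). Of the other secretory RABs, 5 genes (RAB3A, RAB3B, RAB3C, RAB27B and RAB37) were dim. The 2 probe sets of RAB3A stayed between 2.13 and 2.68 on every array, and the one called at 9 h changed by 0.05.

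The early endosome set showed opposite movements of isoforms. RAB5A, RAB5B and RAB5C drive fusion of endocytic vesicles with early endosomes and are encoded by separate genes. RAB5A read 12.18, 11.96, 12.23 and 12.22 at 6 h, against 10.04 to 11.08 with a median of 10.54 at -22 h. The groups did not overlap, and the changes of RAB5A were 1.61 (SE 0.17) at 6 h, 1.31 (SE 0.14) at 9 h and 0.82 (SE 0.17) at 12 h.

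RAB5C moved the same way but peaked later. It read 9.36, 9.46, 9.28 and 9.45 at 12 h, against 7.34 to 8.06 with a median of 7.55 at -22 h. Its changes grew over the hours, with 0.80 (SE 0.11) at 6 h, 1.45 (SE 0.09) at 9 h and 1.78 (SE 0.11) at 12 h, and at 48 h RAB5C lay between 7.24 and 7.57, overlapping -22 h, with a change of -0.16 that was not called.

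RAB5B went the other way. Its bright probe set read 8.39, 8.08, 8.26 and 8.08 at 6 h, against 8.75 to 9.68 with a median of 9.23 at -22 h, again without overlap. RAB5B changed by -1.03 (SE 0.15) at 6 h and -0.87 (SE 0.13) at 9 h, lower in 4 of 4 and 8 of 8 cows, while the change of -0.23 at 12 h was not called. A dim probe set of RAB5B was called higher at 12 h (0.54), with 2 cows above their -22 h value and 2 below. That call was lost with the cow as a fixed replicate block (adjusted p = 0.0767) and in the 4 fully sampled cows alone (adjusted p = 0.304). It was also lost without cow 2, 5, 6 or 8, with a change of 0.21 without cow 8.

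**Figure D3:**
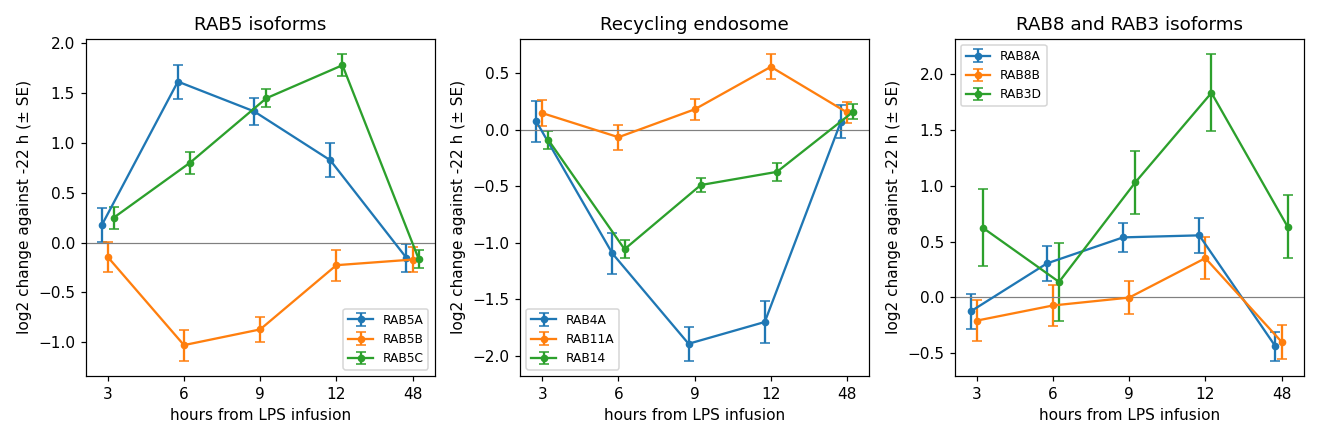
Log2 change against -22 h (vertical axis, bars are ± 1 SE of the model) at 3, 6, 9, 12 and 48 h from LPS infusion (horizontal axis) for RAB5A, RAB5B and RAB5C (left), RAB4A, RAB11A and RAB14 (middle) and RAB8A, RAB8B and RAB3D (right), each read through its brightest probe set. RAB5A and RAB5C lie above 0 at 6 h where RAB5B lies at -1.03, and RAB4A falls to -1.89 at 9 h while RAB11A does not fall.

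RAB22A, which acts in sorting at early endosomes, rose by 0.71 (SE 0.19) at 9 h and 1.17 (SE 0.23) at 12 h. Its values were 7.06, 6.44, 6.62 and 5.90 at 12 h, against 4.58 to 5.85 with a median of 5.42 at -22 h, so the lowest cow at 12 h was just above the highest one at -22 h. RAB31 (also known as RAB22B), which works between the trans-Golgi and endosomes, fell instead. It lay between 5.51 and 7.96 (median 6.38) at 9 h, against 7.57 to 8.75 (median 8.07) at -22 h, lower in 8 of 8 cows, with a change of -1.58 (SE 0.33).

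RAB31 was also the RAB gene on which the cows parted most. At 6 h cows 7 and 8 read 9.75 and 10.60, against 8.04 and 7.57 in the same cows at -22 h. Cows 1 and 3 read 7.47 and 7.95 at 6 h, against 8.45 and 8.43 at -22 h. It was thus up in a pair of cows and down in the other pair, and the mean change of 0.76 (SE 0.40) was not called. All 4 cows were below their -22 h value at 12 h (-1.08, SE 0.40, adjusted p = 0.0303), but that call was lost with the cow as a fixed replicate block (adjusted p = 0.0507) and without cow 1, 3 or 7.

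The recycling endosome set was led by a fall of RAB4A, which returns receptors from early endosomes to the cell surface. RAB4A lay between 6.29 and 7.22 (median 6.84) at 9 h, against 8.26 to 8.97 (median 8.70) at -22 h. No cow at 9 h reached the -22 h range, and the change was -1.89 (SE 0.15), a 3.72-fold fall. Changes of -1.10 (SE 0.18) at 6 h and -1.70 (SE 0.18) at 12 h stood on both sides of it, and at 48 h RAB4A was back between 8.05 and 9.00 (change 0.07).

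RAB14, which acts between the Golgi and endosomes, fell earlier and by less. Its values were 9.64, 9.89, 9.87 and 9.70 at 6 h, against 10.70 to 11.04 with a median of 10.81 at -22 h. The spread within each hour was small, the groups were far apart, and the change was -1.06 (SE 0.08, adjusted p = 8.83e-13). Part of the fall remained at 9 h (-0.49, SE 0.06) and 12 h (-0.37, SE 0.08).

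RAB11A, the main GTPase of the slow recycling route, did not fall. It was called higher at 12 h, with 10.09, 10.00, 9.63 and 10.40 at 12 h, against 9.15 to 9.81 with a median of 9.46 at -22 h (change 0.56, SE 0.11). The ranges overlapped for RAB11A. RAB11B changed by 0.19 (SE 0.07) at 12 h, which was lost when cow 1, 3 or 8 was left out.

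RAB35, which controls a fast recycling route, was little changed up to 12 h but was below its starting level at 48 h. It read 4.48 to 5.04 (median 5.01) at 48 h, against 5.37 to 5.77 (median 5.60) at -22 h, lower in 8 of 8 cows without overlap (change -0.70, SE 0.09). A rise of 0.28 (SE 0.09) at 9 h was not called in the 4 cows with all hours alone (adjusted p = 0.150). A dim second probe set of RAB35 was called higher at 9 h (0.63) and 12 h (0.82). The other 3 recycling RABs on the array, RAB4B, RAB15 and RAB25, were dim.

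The ER and Golgi set holds the largest fall of any RAB gene at 6 h. RAB30, a Golgi RAB, read 5.10, 5.19, 4.54 and 4.32 at 6 h, against 7.14 to 7.76 with a median of 7.51 at -22 h. It changed by -2.70 (SE 0.27) at 6 h, by -2.72 (SE 0.22, 6.57-fold) at 9 h, lower in 8 of 8 cows, and by -1.32 (SE 0.27) at 12 h. By 48 h RAB30 lay between 7.05 and 7.74, overlapping -22 h. The 4 cows already read 6.84 to 7.17 at 3 h, a change of -0.51 that was not called.

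RAB1A and RAB2A, which are needed for transport from the ER to the Golgi, moved up. RAB1A, the gene with the highest mean in the ER and Golgi set, read 12.82, 12.65, 12.94 and 12.89 at 6 h, against 11.34 to 12.30 with a median of 11.94 at -22 h. Its rise held at 3 successive samplings, with changes of 0.91 (SE 0.14) at 6 h, 1.06 (SE 0.12) at 9 h and 1.07 (SE 0.14) at 12 h, and at 48 h the change was 0.46 (SE 0.12), which was not called in the 4 fully sampled cows alone (adjusted p = 0.105). RAB2A rose by 0.41 (SE 0.10) at 9 h and 0.63 (SE 0.12) at 12 h.

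RAB6A, a regulator of traffic at the Golgi, depends on the probe set. The dimmer one lay between 8.52 and 9.28 (median 8.71) at 48 h, against 7.19 to 8.18 (median 7.56) at -22 h, without overlap (change 1.15, SE 0.15), and it had risen by 1.12 (SE 0.19) at 6 h. The brighter one rose by 0.48 (SE 0.15) at 6 h, a call lost without cow 1 or 8, and 0.51 (SE 0.12) at 9 h, and its changes of -0.06 at 12 h and 0.17 at 48 h were not called. Whether the probe sets read different transcripts of RAB6A was not tested. RAB33B, a Golgi RAB with a role in autophagy, read 6.11, 5.44, 6.34 and 5.70 at 6 h, against 6.37 to 7.26 with a median of 6.95 at -22 h (change -1.02, SE 0.22), and was not called at any other hour. RAB18, of the ER and lipid droplets, was called at 48 h alone (-0.36, SE 0.12). RAB19 and RAB34 were dim. RAB34 was called lower at 6 h (-0.64, in 3 of 4 cows), 12 h (-0.37, in 3 of 4 cows) and 48 h (-0.31, in 8 of 8 cows).

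The late endosome set has 4 measured genes, of which RAB7B and RAB9B were dim. RAB29 (also known as RAB7L1), which binds the kinase LRRK2, lay between 6.05 and 6.84 (median 6.37) at 9 h, against 4.84 to 5.51 (median 5.13) at -22 h. Every cow was higher, without overlap, and the changes were 1.25 (SE 0.17) at 9 h and 1.40 (SE 0.21) at 12 h. RAB7A directs late endosomes to lysosomes, and its brighter probe set read 10.63, 10.46, 10.41 and 10.28 at 12 h, against 9.03 to 9.66 with a median of 9.31 at -22 h (change 1.10, SE 0.09).

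The second probe set of RAB7A was nearly flat at 12 h (0.24, SE 0.07), and that call was lost without cow 1 or 3. At 48 h the probe sets of RAB7A were called in opposite directions, 0.34 (SE 0.07) for the brighter and -0.30 (SE 0.06) for the other, each with 8 of 8 cows on its side. Their mean changed by 0.02 at 48 h (adjusted p = 0.774). The direction of RAB7A at 48 h is therefore not settled by these arrays.

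The largest fall of any RAB gene was that of RAB40B, one of the RAB40 proteins that carry a SOCS box and bind a ubiquitin ligase. RAB40B lay between 2.28 and 3.01 (median 2.69) at 9 h, against 5.76 to 7.23 (median 6.79) at -22 h. This change of -3.96 (SE 0.20, adjusted p = 1.38e-17) is a 15.5-fold fall. Since the values at 9 h and at 12 h (2.44 to 2.86) are as low as those of dim probe sets, the full size of the fall may not be read. It had begun at 3 h, where RAB40B was the single RAB gene called lower, with 5.40, 5.22, 5.70 and 5.88 at 3 h, against the range given for -22 h (change -1.06, SE 0.24, adjusted p = 0.0043). In the 4 cows with all hours alone the 3 h change was -0.99 and not called (adjusted p = 0.0932).

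RAB40B went on to -2.38 (SE 0.24) at 6 h and had come most of the way back at 48 h, when it lay between 4.94 and 5.87 (median 5.58), still lower in 8 of 8 cows (-1.11, SE 0.20). Its paralog RAB40C did not follow. RAB40C changed by 0.20 (SE 0.15) at 9 h, where the difference was not called, and fell later, to 3.45 to 4.60 (median 4.47) at 48 h, against 5.03 to 5.81 (median 5.04) at -22 h (-0.86, SE 0.15). Every cow was lower at 48 h for both RAB40 genes, with ranges apart for RAB40C and overlapping for RAB40B.

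RAB12, which acts in recycling and degradation of receptors, gave one of the most even falls. It read 7.84, 7.84, 7.87 and 7.96 at 6 h, against 8.58 to 8.97 with a median of 8.79 at -22 h (change -0.90, SE 0.08), and -0.46 (SE 0.07) was left at 9 h. RAB12 was also called lower at 12 h (8.38 to 8.64) and 48 h (8.30 to 8.88). The 12 h call was lost without cow 7 and in the 4 fully sampled cows alone. The 48 h call was lost without cow 2, in those 4 cows alone and after median centring (adjusted p = 0.219). RAB28, a divergent RAB linked to cilia, rose by 0.62 (SE 0.22) at 6 h and 0.70 (SE 0.18) at 48 h, but by -0.04 at 9 h. The 6 h call of RAB28 was lost without cow 1 or 7 and the 48 h call in the 4 fully sampled cows alone (adjusted p = 0.0514).

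Of the proteins named after a RAB, RAB11FIP5 turned round within 6 hours. This effector of RAB11 read 4.89, 3.50, 4.71 and 4.85 at 6 h, against 6.36 to 7.09 with a median of 6.73 at -22 h, a change of -2.26 (SE 0.22, 4.79-fold). At 12 h RAB11FIP5 read 7.84, 8.21, 7.75 and 7.63, above every array at -22 h (1.11, SE 0.22). The same 4 cows thus lay below the -22 h range at 6 h and above it at 12 h. A dim probe set of RAB11FIP5 was called higher at 12 h as well (0.83).

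RAB11FIP2, another RAB11 effector, stayed low. It read 4.57, 4.59, 4.46 and 4.07 at 6 h, against 5.46 to 6.09 in 7 cows and 4.08 in cow 7 at -22 h (change -1.16, SE 0.23), and cow 7 was the one that did not fall. Changes of -0.92 (SE 0.19) at 9 h and -0.79 (SE 0.23) at 12 h followed, of which the second was lost without cow 8. The change of -0.65 at 48 h was lost without cow 1, 2 or 3. A dim probe set of RAB11FIP2 was called in the opposite direction at 9 h, by 0.04.

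RAB3GAP1, the catalytic subunit of the RAB3 GTPase-activating complex, rose step by step, by 0.61 (SE 0.10) at 6 h, 0.87 (SE 0.08) at 9 h and 1.05 (SE 0.10) at 12 h. It read 9.73, 9.79, 9.55 and 9.77 at 12 h, against 8.09 to 8.89 with a median of 8.75 at -22 h, without overlap. RAB3GAP2, its partner subunit, was dim. RAB3IP (Rabin8), the exchange factor of RAB8, rose by 0.63 (SE 0.12), 0.56 (SE 0.10) and 0.67 (SE 0.12) at 6, 9 and 12 h and was 0.39 (SE 0.10) higher at 48 h, which was not called in the 4 fully sampled cows alone (adjusted p = 0.0606).

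**Figure D4:**
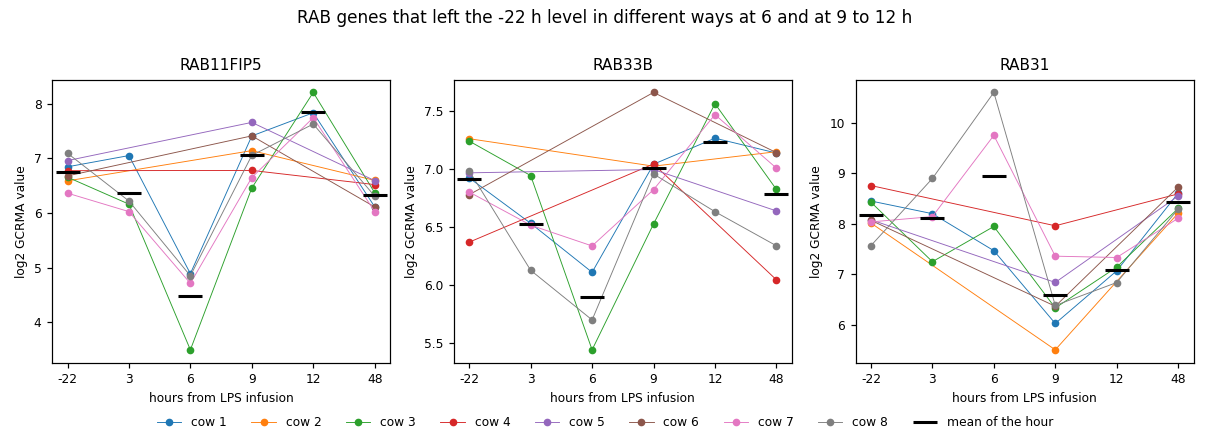
Log2 GCRMA value (vertical axis) at each hour from LPS infusion (horizontal axis, hours evenly spaced) for RAB11FIP5, RAB33B and RAB31, with 1 coloured line per cow and a black bar for the mean of the hour. RAB11FIP5 lies at 3.50 to 4.89 at 6 h and at 7.63 to 8.21 at 12 h, RAB33B dips at 6 h, and RAB31 is up in cows 7 and 8 and down in cows 1 and 3 at 6 h.

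The return towards -22 h was read from 48 h against 9 h. Between these hours, which both hold 8 cows, 10 RAB probe sets (17.9%) were higher and 20 (35.7%) lower at 48 h, against 21.3% and 24.1% of all probe sets. After median centring the balance turned, to 27 higher and 17 lower. The largest differences were those of RAB27A (-3.50, SE 0.21), RAB40B (2.85, SE 0.20) and RAB30 (2.55, SE 0.22), followed by RAB4A (1.96, SE 0.15), RAB31 (1.82, SE 0.33), RAB5C (-1.61, SE 0.09), the dim RAB26 (1.51, SE 0.16) and RAB5A (-1.47, SE 0.14). All of these ran against the change at 9 h, with which they share the 9 h arrays. Differences of at least 0.5 between 48 and -22 h were called for RAB6A (on its dimmer probe set alone), the dim RAB26 and RAB28 (higher). They were also called for RAB35, RAB40B, RAB40C and RAB11FIP2 (lower). Without the -22 h array of cow 1 and the 48 h array of cow 2, which stood apart in earlier work on these data, they were 1.16, 1.05, 0.61, -0.71, -1.15, -0.80 and -0.49, and RAB11FIP2 alone lost its call (adjusted p = 0.0799).

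The proteins that load, switch and read RABs were taken from 4 lists, each gene through its brightest probe set. Of the 9156 genes with a probe set of their own, 36.6% were higher and 28.4% lower at 9 h. At that hour 16 of 31 measured effectors were higher and 6 lower, with a median change of 0.27, against 0.04 over all genes. Of 25 exchange factors, which switch RABs on, 7 were higher and 9 lower (median 0.01), and of 20 GTPase-activating proteins, which switch them off, 4 were higher and 6 lower (median -0.05). Of 3 measured genes of prenylation and recycling, 2 were lower.

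Among exchange factors, DENND2D, which acts on RAB9 in human cells, rose by 3.45 (SE 0.22) and RABGEF1 (Rabex-5), the exchange factor of RAB5, by 2.72 (SE 0.20) at 9 h, each in 8 of 8 cows. SBF2 (MTMR13), which acts on RAB28 in human cells and on RAB21 in flies, changed by -2.58 (SE 0.13) at 9 h, and ALS2CL, a homolog of the RAB5 exchange factor alsin, by -2.16 (SE 0.19) at 6 h. The 4 exchange factors named here thus hold rises and falls.

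Among GTPase-activating proteins, TBC1D4 (AS160), known from GLUT4 traffic, rose by 2.62 (SE 0.28) at 9 h and GRTP1 changed by -2.50 (SE 0.21), both in 8 of 8 cows. TBC1D7, also a subunit of the TSC complex, changed by -1.73 (SE 0.17) at 12 h, and the dim TBC1D2 (Armus), which acts on RAB7, by 1.37 (SE 0.26). Of the effectors, OPTN (optineurin), which binds RAB8, rose by 1.66 (SE 0.12) and GOLGA4, a golgin of the trans-Golgi, by 1.65 (SE 0.14) at 9 h. GOLGA5 (golgin-84) rose by 1.76 (SE 0.20) and EXOC6, the exocyst subunit that binds RABs, changed by -1.77 (SE 0.17) at 6 h. Of the shared machinery, RABGGTA, a subunit of the enzyme that prenylates RABs, changed by -0.64 (SE 0.12) and GDI2, which extracts RABs from membranes, by -0.45 (SE 0.06) at 6 h, while RABAC1 (PRA1) rose by 1.26 (SE 0.23) at 12 h.

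**Figure D5:**
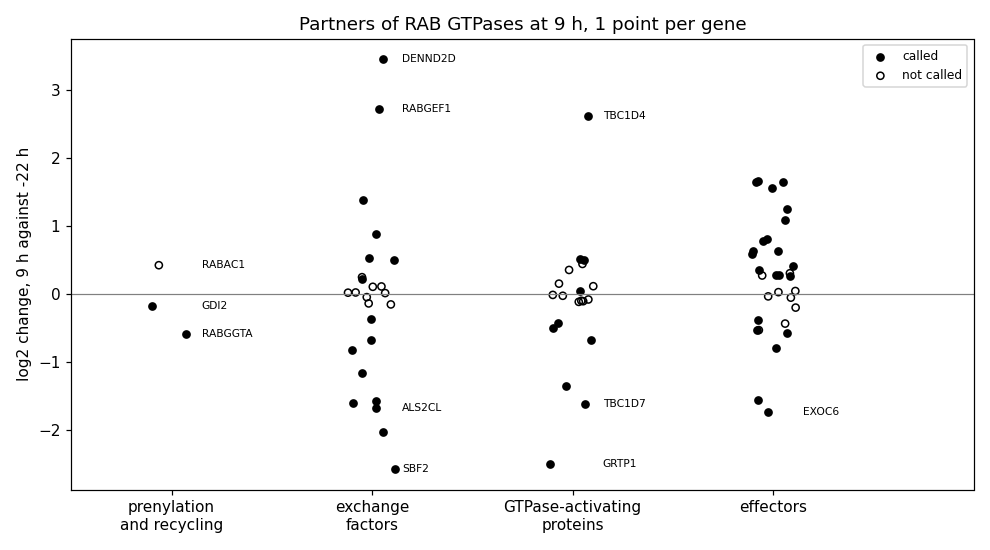
Log2 change at 9 h against -22 h (vertical axis) of the measured genes of 4 lists of RAB partners (horizontal axis), 1 point per gene, filled when called. DENND2D and RABGEF1 lie at the top of the exchange factors and SBF2 at the bottom, and 16 of 31 effectors were called higher.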

How the data were processed

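Liver RNA of 8 cows was measured on 36 Affymetrix Bovine Genome Arrays. The deposited log2 values were made by the authors with GCRMA, which corrects the background, normalizes by quantiles and summarizes the probes of a probe set, and they were used as deposited. Groups are the hours of the labels. The model of limma 3.58.1 (R 4.3.3) held a mean for each hour, no term for the cow and moderated variances, over all 24128 probe sets, and p-values were adjusted by Benjamini-Hochberg with a threshold of 0.05. Genes were named from the annotation table of the platform. A total of 13318 probe sets name 1 gene, and all 44 RAB symbols equal the current RefSeq symbol. Precision is limited by how many cows were sampled and how far they differ, and a fall cannot be seen below the floor of the scale (0.69 is the lowest value of the table).

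The members and lists were chosen with earlier results of these data known. Genes named with values were, in each list of RABs, up to 6 with the largest called change up to 12 h in the same direction in every cow, the one with the highest mean, those with probe sets called in opposite directions and those called at 48 h with a change of at least 0.5; from each partner list up to 4 were named. Other members were named with their values in view.

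The cow identifier of the labels pairs arrays. Deviations from the hourly means at -22 and 48 h had a mean correlation of 0.32 for arrays of the same cow (0.12 to 0.50, 8 cows) and of -0.04 for different cows. Alternatives were the cow as a fixed or random replicate block, the omission of each cow, the 4 fully sampled cows alone, the fit without 2 arrays, median centring of the arrays (over probe sets with a mean of at least 5), array weights, a filter on dim probe sets (12479 kept), another variance prior, Bonferroni adjustment at 0.01 as in the methods of the study, and averaging of the probe sets that share a gene. The scripts were tested on simulated data. Figures were drawn with matplotlib 3.10.9.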

Additional observations from a re-analysis of the deposited data

Results flagged for a closer look

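In 15 of 174 groups of values (the named RAB genes above the dim level, by hour), 1 cow stood outside the others by Dixon's criterion, which chance meets in about 1 of 20 groups. Of these 15, 6 were cow 2 at 48 h. That cow read 11.30 for RAB5A, 11.68 for RAB6A, 9.60 for RAB8A and 7.63 for RAB28, above all other cows, whose nearest values were 10.46, 11.10, 8.84 and 7.02. It read 8.05 for RAB4A and 7.61 for RAB11B, below the nearest values of 8.64 and 7.91. Cow 3 was lowest for RAB11FIP5 at 6 h (3.50, nearest 4.71) and for RAB1A at 3 h (11.74, nearest 12.26), and highest for RAB40C at 3 h (5.40, nearest 5.04). Cow 8 was lowest for RAB11B at 9 h (7.74, nearest 7.98) and at -22 h (7.65, nearest 7.97). Cow 7 was lowest for RAB11FIP2 at -22 h (4.08, nearest 5.46) and cow 5 highest at 9 h (5.06, nearest 4.78). Cow 6 was highest for RAB33B at 9 h (7.66, nearest 7.05) and cow 1 for RAB40C at -22 h (5.81, nearest 5.18).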

How the results depend on the processing

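All 126 called changes of named RAB genes kept their direction in the 2165 values of the alternatives, and 154 of these values missed the threshold. The averaging of probe sets was compared for only part of the 126 (29 the same and 4 weaker). The second probe set of RAB7A at 48 h was outside that comparison. Its change of -0.30 has the opposite sign to the averaged change of 0.02. Bonferroni adjustment at 0.01 left 52 of the 126 called, and 26 lost their call under at least 1 other alternative. With the cow as a fixed replicate block, RAB31 and the dim probe set of RAB5B at 12 h lost their calls, and the count higher at 3 h was 2 rather than 1. With the cow as a random replicate block, no call of a named change was lost. Under Bonferroni the counts higher and lower were 0 and 0 at 3 h, 4 and 6 at 6 h, 9 higher at 9 h, 7 and 2 at 12 h, 1 and 1 at 48 h, and 5 and 11 for 48 against 9 h. In the 4 cows with all hours they were 0 and 0 at 3 h, 5 lower at 12 h, and 2 and 5 at 48 h. Array weights gave 5 and 2 at 3 h, 22 higher at 6 h and 18 higher at 48 h. Median centring removes a shift of the array medians of -0.13 (log2) at 48 h against both -22 and 9 h, so all changes at 48 h move up by it. It gave 26 higher and 6 lower at 48 h, and 27 higher and 17 lower for 48 against 9 h. The filter on dim probe sets gave 5 higher at 48 h, and the fit without 2 arrays gave 7. The counts at 48 h thus depend on the scaling. At 9 h the count higher was 19 after median centring, 18 in the 4 cows with all hours and 31 with array weights. With the filter on dim probe sets it was 18. Leaving out 1 cow at a time gave 0 to 1 higher and 1 to 1 lower at 3 h, 10 to 14 and 11 to 11 at 6 h, 19 to 26 and 9 to 10 at 9 h, 21 to 24 and 7 to 8 at 12 h, 6 to 15 and 6 to 10 at 48 h, and 9 to 10 and 18 to 20 for 48 against 9 h. At 48 h the count higher was 6 without cow 1 or 3 and 7 without cow 2, 4, 5 or 6, and the count lower was 6 without cow 1. The cause of these differences was not tested.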
